A study of Rattus norvegicus with 24 samples.

Results

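The cerebellum and the hippocampus of undosed Long Evans rat pups were compared on postnatal day (PND) 7. The comparison held 6 of the 24 arrays of the series, chosen by their labels: 3 cerebella and 3 hippocampi from pups of dams 1, 7 and 13. These dams were given corn oil alone (2 ml/kg, by gavage) from gestation day 6, litters were reduced to 4 pups of each sex on PND4, and 1 pup per litter, labelled male, was taken at each age. The control pups therefore share daily gavage of the mother with the dosed ones. Each array carried total RNA of a whole dissected tissue, and each difference was taken as cerebellum minus hippocampus within a dam. The same tissue difference was then set beside that of 3 dosed dams (12, 15 and 18), which received 6 mg/kg/day of the polychlorinated biphenyl mixture Aroclor 1254 in the same volume of oil and were also sampled on PND7. It was also set beside that of undosed pups of dams 1 and 7 on PND14.

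At this age the rat cerebellum is still building most of its neurons. Granule cell precursors divide in the external granular layer, driven by Sonic hedgehog from the Purkinje cells below, and then leave the cycle and migrate inward along Bergmann glia. In the hippocampus the pyramidal neurons were born before birth and are growing dendrites and synapses, while granule neurons of the dentate gyrus are still being added. Both tissues lie against choroid plexus and meninges, and a dissection can carry some of each.

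The values are log2 expression values as deposited, and a gene is represented by its probe set with the highest mean over the 6 arrays. Array medians lay between 7.44 and 7.47. Pearson's r across probe sets was 0.996 to 0.996 between cerebella, 0.995 to 0.997 between hippocampi and 0.962 to 0.967 between tissues. Xist, the RNA of the inactive X chromosome, went against the male label in both arrays of dam 13: it stood at 10.52 in the cerebellum and 9.70 in the hippocampus, against at most 4.18 in the other arrays compared here. The PND14 arrays of dam 1 were also high, at 10.76 and 8.98. A list count from PND7 is followed by its value without dam 13 where that differs.

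Most genes measured differed between the tissues, but few by much. Of 7135 genes that passed a filter on low values, 4074 (57.1%) were called at an adjusted p under 0.05 in limma's test paired by dam, 2226 (31.2%) higher in cerebellum and 1848 (25.9%) higher in hippocampus. A difference of over 2-fold was called for 258 genes (3.62%) in favour of cerebellum and for 283 (3.97%) in favour of hippocampus, and 2686 of the called genes differed by under 1.5-fold. Without dam 13, 3149 genes (44.1%) were called, 1613 higher in cerebellum and 1536 in hippocampus, with 247 and 296 over 2-fold. The groups of 3 did not overlap for 4585 genes (64.3%). Each list count below is to be read beside the shares of all genes: 57.1% called, 31.2% higher in cerebellum and 25.9% higher in hippocampus. Over all probe sets 5662 were called, and 4401 without dam 13. In whole tissue, more cells of a type and more RNA per cell cannot be told apart.

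Purkinje cell and granule cell precursor genes led on the cerebellar side. Pcp2, a marker of Purkinje cells, stood at 10.75, 11.11 and 10.93 in the cerebella of dams 1, 7 and 13 and at 6.19, 6.27 and 6.29 in their hippocampi. It was 25.6-fold higher in cerebellum (log2 difference 4.68 ± 0.08, limma, adjusted p = 1.47e-10). A ± value here and below is limma's moderated SE, which also draws on the spread of all tested probe sets. Pax6, a transcription factor of granule cell precursors, read 10.63, 10.61 and 10.66 against 6.95, 6.82 and 6.84, a 13.6-fold difference. Car8, a Purkinje cell protein that binds the inositol trisphosphate receptor, read 10.31, 10.28 and 10.05 against 6.50, 6.49 and 6.66, or 12.7-fold. Cbln1, which granule cells release to hold their synapses on Purkinje cells, was 9.56-fold higher. For all of these genes every cerebellum lay well above every hippocampus, and the gap was many times the spread within a tissue. They were picked as the largest called differences in the same arrays, so this separation follows from the choice. The 15 largest cerebellar differences also held the homeobox genes Barhl1 (2.84) and Onecut1 (2.45), the neurotrophin receptor Ngfr (2.94), the corepressor Skor1 (3.42), the major myelin protein gene Mbp (2.67) and the cell division genes Pclaf (2.68), Cks2 (2.55) and Knstrn (2.50), all given as log2 differences. Exoc3l1 (3.10), Mfap4 (2.97) and Igfbpl1 (2.60) completed them.

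Genes of forebrain neurons led on the hippocampal side. Crym, a thyroid hormone binding protein, stood at 12.30, 12.15 and 12.22 in the hippocampi of dams 1, 7 and 13 and at 7.12, 7.24 and 7.33 in their cerebella, 31.8-fold higher (log2 difference 4.99 ± 0.08, hippocampus minus cerebellum; limma, adjusted p = 1.42e-10). Gda, a guanine deaminase found in dendrites, read 11.40, 11.39 and 11.25 in hippocampus against 7.30, 7.19 and 6.88, or 18.6-fold. Lhx2, a LIM homeobox factor needed to form the hippocampus, read 9.16, 8.97 and 8.83 against 5.08, 5.24 and 5.15, or 14.2-fold. For each of these genes the arrays of a tissue lay close together and the tissues far apart, which again follows from how they were picked. Nr4a3, an orphan nuclear receptor induced by activity, was 18.0-fold higher on the probe set used here and 0.78 higher on the log2 scale on another. The remaining members of the 15 were the GABA receptor subunit gene Gabra5 (3.54), the calmodulin-binding Camkv (3.44) and Nrgn (3.41), the peptide gene Cck (3.11), the POU factor Pou3f1 (2.90), the postsynaptic Ddn (2.86), the guidance cue Sema3c (2.73) and the phosphodiesterase Pde2a (2.68), with Mpped1 (3.75), Cdkl2 (3.02) and Rprml (2.72), all as log2 hippocampus minus cerebellum.

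**Figure D1:**
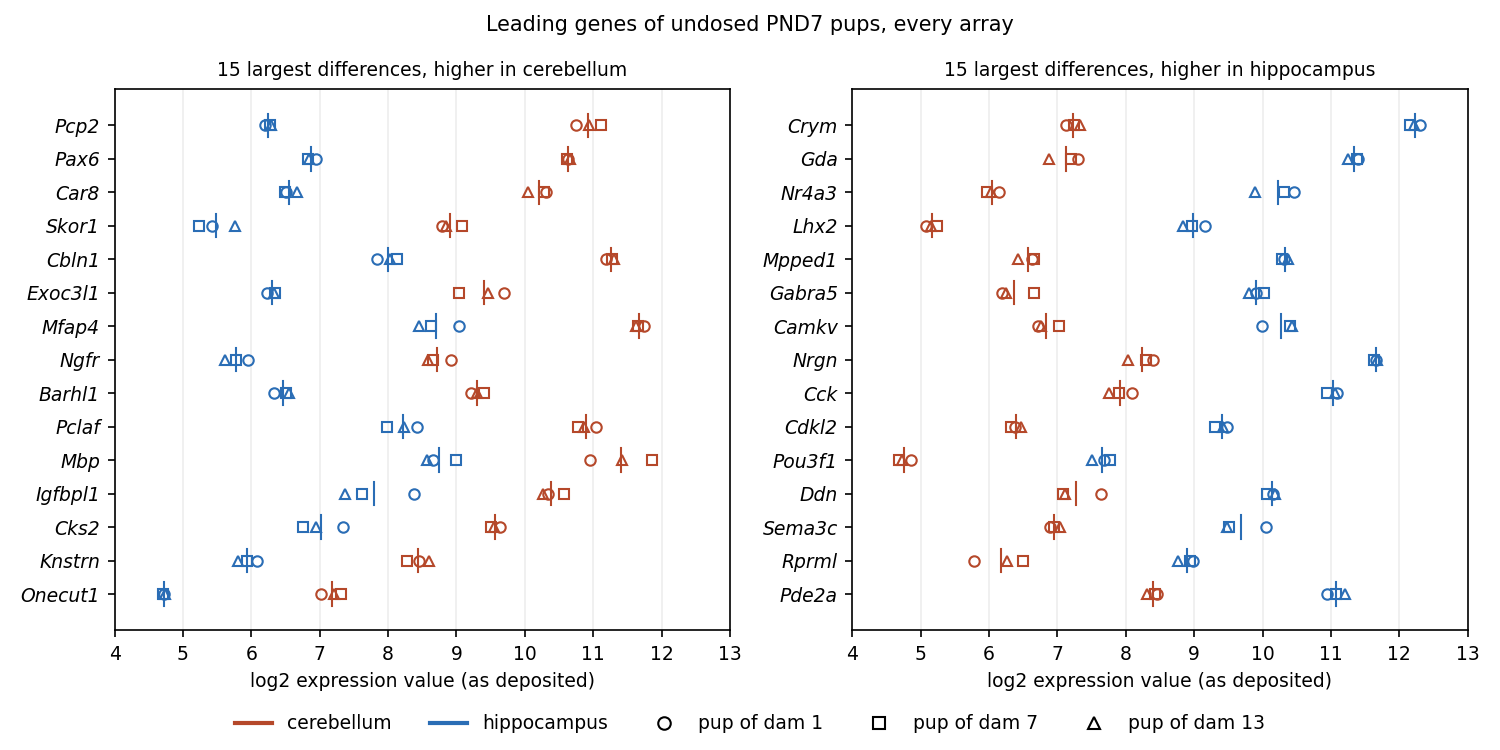
Log2 expression value (horizontal axis) of the 15 genes with the largest called difference in each direction, in each of the 6 arrays of undosed PND7 pups; colour gives the tissue, the symbol the dam and the vertical line the mean of 3 arrays. For every gene drawn, all 3 arrays of one tissue lie above all 3 of the other, from Onecut1 (log2 difference 2.45) to Pcp2 (4.68) in cerebellum and from Pde2a (2.68) to Crym (4.99) in hippocampus. The genes were picked by these differences in the same arrays, so their separation follows from the choice.

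Most forebrain and hippocampal identity factors measured were higher in hippocampus, and 2 of 4 hindbrain and cerebellar factors were higher in cerebellum. Of 10 hindbrain and cerebellar factors with a probe set, 4 passed the filter: Zic1 and Barhl1 were higher in cerebellum (3 factors without dam 13), the latter reading 9.21, 9.41 and 9.30 against 6.34, 6.50 and 6.55. Zic1 read 7.89, 8.05 and 7.96 in cerebellum against 6.09, 6.29 and 5.68, a 3.85-fold difference. Meis2 was 4.55-fold higher in hippocampus. Of 12 forebrain and hippocampal factors measured, 9 were higher in hippocampus (8 without dam 13), with Lhx2 and Pou3f1 followed by Nr4a2 (5.46-fold) and the neuronal factor Mef2c (5.06-fold). Prox1, which marks dentate granule neurons, read 8.80, 8.64 and 8.52 in hippocampus against 7.53, 7.46 and 7.45, or 2.26-fold. The exceptions were Otx2, a factor of posterior granule cell precursors and of choroid plexus (5.38-fold higher in cerebellum), and Neurod2 (1.66-fold higher in cerebellum). Emx2, a cortical and hippocampal homeobox gene, did not pass the filter, reading 4.02 in cerebellum and 5.55 in hippocampus on average. En2, Atoh1 and Neurod6 were not analysed here. Zic1, Barhl1 and Otx2 read below the filter level in every hippocampus, and Lhx2 in every cerebellum. They passed only through the other tissue, so their side follows from the filter.

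Cell division genes had the largest median difference of all gene lists. Of 44 cell cycle genes with a probe set, 40 passed the filter. Of these, 38 were higher in cerebellum, none was higher in hippocampus and 31 differed by over 2-fold. The groups did not overlap for 39 of the 40, against 64.3% of all genes tested. The median log2 difference was 1.49, against 0.03 over all genes tested. Mki67, the proliferation antigen Ki-67, stood at 8.68, 9.12 and 8.91 in cerebellum and at 6.64, 6.49 and 6.47 in hippocampus, 5.17-fold higher (log2 difference 2.37 ± 0.10). Kif22, a mitotic kinesin, was 4.72-fold higher, Ccnb2, a cyclin of mitosis, 4.62-fold, and Ube2c, which marks mitotic cyclins for destruction, 4.40-fold. Every cerebellum read over 2 log2 units above the highest hippocampus for Mki67. Its hippocampi all lay below the filter level, so it passed only through its cerebella, and its side and separation follow from the filter. How many of the 40 passed in this way was not counted. The tubulin gene Tubb5 and the microtubule regulator Stmn1 were the 2 members not called, named after their values were seen. Tubb5 read 12.90 and 12.91 on average, with a 95% interval of the difference from -0.18 to 0.14, but a dimmer probe set of it was 0.64 (log2) higher in cerebellum (limma, adjusted p = 5.65e-05). The summed linear signal of the list lay between 15.31 and 15.35 (log2) in the cerebella and between 14.44 and 14.50 in the hippocampi. Without dam 13 the counts were again 38 and none.

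The promoters of these genes were searched for 11 motifs, of which 4 are known from genes of dividing cells. RefSeq windows (GRCr8) of 250 bases before to 50 after the start were found for 5969 of the 7135 genes and for 32 of the 38 cell cycle genes higher in cerebellum. The CCAAT box (letters CCAAT, either strand) occurred in 21 of those 32 (65.6%), in 38.3% of all tested genes with a window and in 37.7% of all 27457 windows. The cell cycle homology region (letters TTTGAA, either strand), an element through which mitotic genes are held silent outside division, occurred in 12 of 32 (37.5%), against 10.4% of tested genes and 18.1% of all windows. An E2F site of the letters GGCGCGAA, searched on both strands and added to the motifs after other results were seen, occurred in 5 of 32 (15.6%), against 1.02% of tested genes and 0.517% of all windows. The other E2F site searched (letters GGCGGGAA, either strand) occurred in 4 of 32 (12.5%), against 3.94% of tested genes. Of the remaining 7 motifs, searched the same way, the E-box CAGCTG occurred in 15.6% against 14.9% of tested genes. The ROR site TAGGTCA, the cAMP response element TGACGTCA, the ZIC core CAGCAGG and the E-box CAGATG occurred in 1 of 32 each (3.12%), against 1.68%, 3.13%, 9.62% and 10.3%. The TATA box (TATAAA) and the homeodomain site (TAATTA) occurred in 0 of 32, against 6.42% and 1.73%. Among genes over 2-fold higher in cerebellum, which include most of the cell cycle genes, the shares for the CCAAT box, the cell cycle homology region and the first E2F site were 46.8%, 25.4% and 4.39%, and among those over 2-fold higher in hippocampus 28.1%, 3.94% and 0 of 203 windows. A match is a description of letters, and its part in the differences was not tested.

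The 250 bases before the start of 6 cell cycle genes are printed because they hold several of these matches; the genes were chosen after their values and matches were seen. Each is read 5′ to 3′ on the strand of its gene, and capitals mark CCAAT boxes, cell cycle homology regions and, in the Mcm genes, the E2F letters, on either strand. The GRCr8 positions are chr8:79981659-79981908 (minus strand) for Ccnb2, chr20:19265043-19265292 (plus) for Cdk1, chr10:84473094-84473343 (minus) for Top2a, chr1:199952594-199952843 (minus) for Mki67, chr13:42404353-42404602 (minus) for Mcm6 and chr12:22163179-22163428 (minus) for Mcm7.
Ccnb2: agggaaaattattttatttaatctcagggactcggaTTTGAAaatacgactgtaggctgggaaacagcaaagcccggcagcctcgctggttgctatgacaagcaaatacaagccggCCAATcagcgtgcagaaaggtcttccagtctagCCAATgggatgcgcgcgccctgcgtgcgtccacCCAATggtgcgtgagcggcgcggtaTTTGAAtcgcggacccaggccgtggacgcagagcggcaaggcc
Cdk1: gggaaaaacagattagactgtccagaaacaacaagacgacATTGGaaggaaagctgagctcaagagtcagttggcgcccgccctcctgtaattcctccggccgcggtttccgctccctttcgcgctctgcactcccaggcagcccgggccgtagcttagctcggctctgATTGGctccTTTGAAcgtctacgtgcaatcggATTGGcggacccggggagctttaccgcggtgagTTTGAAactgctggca
Top2a: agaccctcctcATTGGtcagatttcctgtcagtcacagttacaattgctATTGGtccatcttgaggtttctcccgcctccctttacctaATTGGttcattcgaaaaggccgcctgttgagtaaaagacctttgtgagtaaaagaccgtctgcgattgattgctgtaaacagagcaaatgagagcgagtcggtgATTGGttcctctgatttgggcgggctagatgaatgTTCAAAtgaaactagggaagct
Mki67: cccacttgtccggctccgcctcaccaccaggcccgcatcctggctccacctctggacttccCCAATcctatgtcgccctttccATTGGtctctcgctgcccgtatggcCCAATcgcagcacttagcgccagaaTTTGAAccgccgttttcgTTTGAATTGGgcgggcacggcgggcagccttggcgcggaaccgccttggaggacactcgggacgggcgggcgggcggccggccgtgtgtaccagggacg
Mcm6: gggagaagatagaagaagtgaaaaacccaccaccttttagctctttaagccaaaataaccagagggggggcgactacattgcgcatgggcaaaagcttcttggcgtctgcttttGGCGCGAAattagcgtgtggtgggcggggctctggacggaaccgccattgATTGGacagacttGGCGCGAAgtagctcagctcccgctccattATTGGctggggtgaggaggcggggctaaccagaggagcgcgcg
Mcm7: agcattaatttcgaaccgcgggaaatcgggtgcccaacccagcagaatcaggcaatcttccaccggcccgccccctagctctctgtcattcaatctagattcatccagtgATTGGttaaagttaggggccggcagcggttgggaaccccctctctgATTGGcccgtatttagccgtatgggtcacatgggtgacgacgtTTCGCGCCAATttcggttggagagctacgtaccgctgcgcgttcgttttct
Ccnb2 held 3 CCAAT boxes, the first letter of each lying 134, 101 and 68 bases before the start, and TTTGAA at 214 and 43 bases. Cdk1 held CCAAT boxes 210, 81 and 49 bases and TTTGAA 72 and 16 bases before the start. Mcm6 held GGCGCGAA at 136 and 73 bases, and in Mcm7 a CCAAT box and GGCGCGAA shared letters, as a CCAAT box and TTTGAA did in Mki67. The 6 genes encode the mitotic cyclin and its kinase (Ccnb2, Cdk1), the DNA topoisomerase of dividing cells (Top2a), Ki-67, and subunits of the replicative helicase (Mcm6, Mcm7). Cdk1 stood at 9.53, 9.56 and 9.68 in cerebellum and 7.79, 7.43 and 7.49 in hippocampus. Top2a stood at 10.12, 10.11 and 10.15 against 8.22, 7.89 and 8.00 on this probe set, and a dimmer probe set gave a log2 difference of 0.91. Mcm6 stood at 9.39, 9.25 and 9.28 against 7.50, 7.46 and 7.52, and Mcm7 at 10.43, 10.47 and 10.40 against 8.59, 8.19 and 8.56. The tissues did not overlap in any of these genes, nor in 64.3% of all genes tested, and the folds ran from 3.52 (Mcm6) to 5.17 (Mki67). For Mki67 at least, which passed the filter only through its cerebella, this follows from the filter.

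Genes of granule cell precursors and Sonic hedgehog signalling were all on the cerebellar side. All 12 measured members of the 18 with a probe set were called higher in cerebellum, 5 of them by over 2-fold, with a median log2 difference of 0.92. Without dam 13, 11 of the 12 were called. After Pax6 and Barhl1 came Nhlh1, a helix-loop-helix factor of young granule cells (9.34, 9.36 and 9.42 against 7.44, 7.09 and 7.25, 4.33-fold), and Boc, a Sonic hedgehog coreceptor (8.49, 8.68 and 8.35 against 6.80, 6.84 and 6.53, 3.43-fold). Both differences were more than 3 times the widest range among arrays of a tissue. Barhl1 and Boc read below the filter level in every hippocampus, so their side follows from the filter.

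Granule neuron genes were split. Of 21 measured, 12 were higher in cerebellum, 5 were higher in hippocampus and 4 were not called. Cbln1 was followed by the axonal adhesion gene Cntn2 (8.34, 8.28 and 8.23 against 6.31, 5.97 and 5.94, 4.62-fold), the giant cadherin Fat2 (7.40, 7.37 and 7.67 against 5.26, 5.29 and 5.47, 4.40-fold) and Zic1. Slc17a7, the vesicular glutamate transporter of both granule and pyramidal neurons, was on the other side, at 8.80, 9.11 and 8.83 in cerebellum and 11.08, 11.09 and 11.14 in hippocampus (4.57-fold higher in hippocampus). Calb2, the calcium buffer calretinin, was also higher in hippocampus (2.37-fold). Of the genes that mark mature granule neurons, Gabra6 did not pass the filter, with means of 6.63 and 6.34, and Grin2c read 8.13, 8.22 and 8.02 against 7.75, 8.36 and 8.12, with overlapping groups. Reln, the secreted guide of neuronal layering, was 1.88-fold higher in cerebellum.

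Purkinje cell genes were mostly higher in cerebellum, at 13 of 17 measured (12 without dam 13), with 2 higher in hippocampus and a median log2 difference of 0.93. Calb1, the calcium buffer calbindin, read 11.04, 11.13 and 11.01 in cerebellum against 9.03, 8.80 and 8.77 in hippocampus (4.57-fold), although dentate granule neurons also make it. The homeobox gene Lhx1 was 4.46-fold higher and Itpr1, the inositol trisphosphate receptor, 3.37-fold higher. Itpka, a kinase of pyramidal dendrites that was also on this list, was 1.63-fold higher in hippocampus, and the potassium channel gene Kcnma1 was the other exception (log2 0.54 higher in hippocampus). The summed signal of the list lay between 13.89 and 14.00 (log2) in cerebellum and between 12.77 and 12.83 in hippocampus. For the other inhibitory cells of cerebellum, 5 of 8 measured genes were higher in hippocampus, and Lhx1 alone was higher in cerebellum.

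Glial genes went both ways. Of 8 Bergmann glia genes measured, 6 were higher in cerebellum (5 without dam 13), led by Gdf10 (9.98, 10.13 and 9.87 against 7.75, 7.59 and 7.50, 5.21-fold), a growth factor these cells secrete, then Hopx (3.32-fold) and A2m (3.07-fold). Fabp7, a lipid carrier of radial glia, was 1.97-fold higher in hippocampus and Ptprz1 1.90-fold. Of 21 astrocyte genes, 9 were higher in cerebellum and 8 in hippocampus (7 and 9 without dam 13). Aldh1l1 was 2.76-fold higher in cerebellum and Acsbg1 0.88 (log2) higher in hippocampus, while Gfap, the astrocyte filament gene, read 10.54, 11.24 and 10.84 against 10.73, 11.16 and 10.75, with a 95% interval of the difference from -0.19 to 0.18. Nes, a filament gene of precursor cells and radial glia, was 2.11-fold higher in cerebellum.

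Of 14 oligodendrocyte and myelin genes measured, 7 were higher in cerebellum and 4 in hippocampus (3 without dam 13). Mbp stood at 10.95, 11.86 and 11.42 in cerebellum and 8.65, 8.99 and 8.57 in hippocampus, 6.38-fold higher. Mobp was 3.02-fold higher and the tight junction gene Cldn11, which meninges also express, 2.46-fold. The cerebella differed among themselves here, dam 1 low and dam 7 high for Mbp and Mobp, yet each exceeded all hippocampi. On the hippocampal side were Pdgfra, the growth factor receptor of oligodendrocyte precursors (9.22, 9.39 and 9.39 against 9.89, 9.81 and 9.73, 1.39-fold), Olig1 (1.37-fold), Gpr37 (log2 0.60) and Tspan2, whose call was lost without dam 1 (log2 difference -0.17, adjusted p = 0.124) or dam 13 (-0.17, 0.295).

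Genes of pyramidal and dentate neurons were mainly higher in hippocampus, at 23 of 29 measured, with 14 over 2-fold. The median log2 difference was 0.95 in favour of hippocampus. Nrgn, a calmodulin store in dendritic spines, stood at 11.66, 11.63 and 11.67 in hippocampus and at 8.39, 8.30 and 8.03 in cerebellum, 10.6-fold higher. Camk2a, the plasticity kinase of excitatory synapses, was uneven between hippocampi, at 8.00, 9.28 and 7.63, against 5.75, 6.16 and 5.65 in cerebellum (5.47-fold). Nptx1, a synaptic pentraxin, was 4.85-fold higher in hippocampus. Of the 29, 3 were higher in cerebellum: Calb1, Neurod2 and Fibcd1, a later marker of field CA1 (7.18, 6.99 and 7.12 against 6.64, 6.68 and 6.65, 1.35-fold). Wfs1, also a CA1 gene, was 1.39-fold higher in hippocampus.

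Glutamate receptor genes were mostly higher in hippocampus. Of 17 measured, 10 were higher there, 1 was higher in cerebellum and 6 were not called. The share called, 64.7%, was near the 57.1% of all genes, of which 25.9% were higher in hippocampus and 31.2% in cerebellum. The largest differences were those of Grin2d, an NMDA receptor subunit gene of early life and of interneurons (8.41, 8.48 and 8.42 against 6.49, 6.63 and 6.15 in cerebellum, 4.04-fold), and Grm7, a presynaptic metabotropic receptor gene (7.46, 7.44 and 7.60 against 5.89, 5.78 and 5.67, 3.30-fold). The AMPA subunit genes Gria1, Gria2 and Gria3 were 2.01-fold, 1.70-fold and 1.49-fold higher, the kainate subunit genes Grik4 and Grik5 1.93-fold and 1.53-fold. Grin1 (1.61-fold), Grm5 (1.58-fold) and Grin2b (1.32-fold) completed the 10. None of the 10 overlapped between tissues, nor did 3930 of all 4074 called genes. Grin2d and Grm7 read below the filter level in every cerebellum, so for them this follows from the filter. Grm2, a receptor gene of Golgi cells and dentate granule neurons, was 1.32-fold higher in cerebellum. Grin2a, Grin2c, Grik2, Grm3, Grm4 and Grm8 overlapped between tissues, with 95% intervals of the log2 difference that lay within -0.32 and 0.43. Without dam 1, Grik2 was called higher in cerebellum (log2 0.20, adjusted p = 0.0338) and Grin2a higher in hippocampus (-0.24, 0.0207), and without dam 7 Grm4 was called higher in cerebellum (0.36, 0.0114).

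GABA and glycine receptor genes showed the same side. Of 19 genes measured for inhibitory receptors, synthesis and transport, 11 were higher in hippocampus and 3 in cerebellum (2 without dam 13). Gabra5, the subunit of extrasynaptic hippocampal receptors, read 9.90, 10.02 and 9.80 in hippocampus against 6.19, 6.66 and 6.24 (11.7-fold), and Glra2, the fetal glycine receptor subunit, 9.19, 8.83 and 8.71 against 6.84, 7.05 and 7.14 (3.72-fold). Gabrb2 and Gabrb1 were 2.66-fold and 2.63-fold higher in hippocampus, Glrb 2.17-fold, Gabbr2 2.10-fold, Gabrg1 1.81-fold, Gabra4 1.67-fold and the anchoring protein gene Gphn 1.34-fold. The chloride transporters went in opposite directions: Slc12a5, which lowers chloride in mature neurons, was 1.89-fold higher in hippocampus, and Slc12a2, which raises it in young cells, 1.65-fold higher in cerebellum. Genes that make and pack GABA differed little: Gad1 stood at 9.88, 10.01 and 9.95 against 10.23, 10.06 and 10.13 (adjusted p = 0.0648 in limma), and Slc32a1 at 9.34, 9.15 and 9.39 against 9.42, 9.39 and 9.29. Gad1 was called higher in hippocampus without the pairing by dam (log2 difference -0.19, adjusted p = 0.0417) and with an intensity trend in the variance prior (adjusted p = 0.0442), and its dimmer probe set was called higher in cerebellum (0.20, adjusted p = 0.0347). Gad2 was 1.27-fold higher in hippocampus, a call lost without dam 7 (log2 difference -0.21, adjusted p = 0.134). The glycine transporter gene Slc6a9 (1.25-fold) and Abat (1.21-fold) were higher in cerebellum; Slc6a9 lost its call without dam 13 (log2 0.28, adjusted p = 0.0544) and Abat without dam 1 (0.16, 0.0895) or dam 7 (0.29, 0.0566). Gabbr1, Gabre and Slc6a13 were not called and their groups overlapped, although 2 other Gabbr1 probe sets were called higher in hippocampus (log2 differences -0.25 and -0.31, adjusted p = 0.0129 and 0.00472).

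Excitability and release genes also leaned towards hippocampus. Of 18 sodium and calcium channel genes, 14 were higher there (13 without dam 13), among them the sodium channel genes Scn2a (3.40-fold) and Scn3a (2.91-fold) and the calcium channel subunit gene Cacna2d3 (3.27-fold). Cacng2, the AMPA receptor partner stargazin of granule cells, was 1.62-fold higher in cerebellum. Of 27 potassium channel genes, 13 were higher in hippocampus (11 without dam 13) and 6 in cerebellum, the extremes being Kcnip2 (4.07-fold, hippocampus) and Kcnj6, a G protein gated channel (10.02, 10.14 and 10.25 in cerebellum against 7.85, 7.63 and 7.84, 5.15-fold). Of 32 genes of synaptic vesicles and release, 25 were higher in hippocampus, with Stx1a 3.83-fold, Syt5 3.41-fold and Syt4 3.30-fold, and 2 were higher in cerebellum, Vamp1 (1.63-fold) and Sv2b, whose call was lost without dam 7 (log2 0.26, adjusted p = 0.0644) or dam 13 (0.17, 0.289). Of 22 postsynaptic genes, 15 were higher in hippocampus and 4 in cerebellum (12 and 3 without dam 13), where Homer3, the Purkinje cell scaffold, was 1.97-fold higher and Homer1 was 0.65 (log2) on the hippocampal side. Of 37 calcium signalling genes, 25 were higher in hippocampus (24 without dam 13). Camk2b, the kinase subunit of both tissues, was 3.33-fold higher there, whereas Camk2d was 2.00-fold higher in cerebellum.

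Peptide and modulator genes were likewise hippocampal. Of 17 neuropeptide genes measured, 13 were higher in hippocampus (11 without dam 13) and 1 in cerebellum. Npy stood at 10.24, 10.26 and 10.21 in hippocampus and 7.75, 7.80 and 7.57 in cerebellum (5.77-fold), and Cck at 11.09, 10.94 and 11.05 against 8.09, 7.90 and 7.75 (8.66-fold). Sstr1, a somatostatin receptor gene, was 4.63-fold higher, and 0.90 (log2) higher on another probe set. The cerebellar call, Penk, was lost without dam 1 (adjusted p = 0.0551) or dam 7 (0.402). Of 11 genes of forebrain interneurons, 8 were higher in hippocampus and 2 in cerebellum, and 5 were higher in hippocampus without dam 7 and 7 without dam 13. Receptors for modulators were on the same side in 8 of 12 (6 without dam 13), led by the muscarinic Chrm3 (2.70-fold) and the cannabinoid receptor gene Cnr1 (2.35-fold). Of 12 immediate early genes, 7 were higher in hippocampus and 3 in cerebellum (5 and 2 without dam 13). Egr1 was 2.30-fold higher in hippocampus and Ier2 2.37-fold higher in cerebellum.

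**Figure D2:**
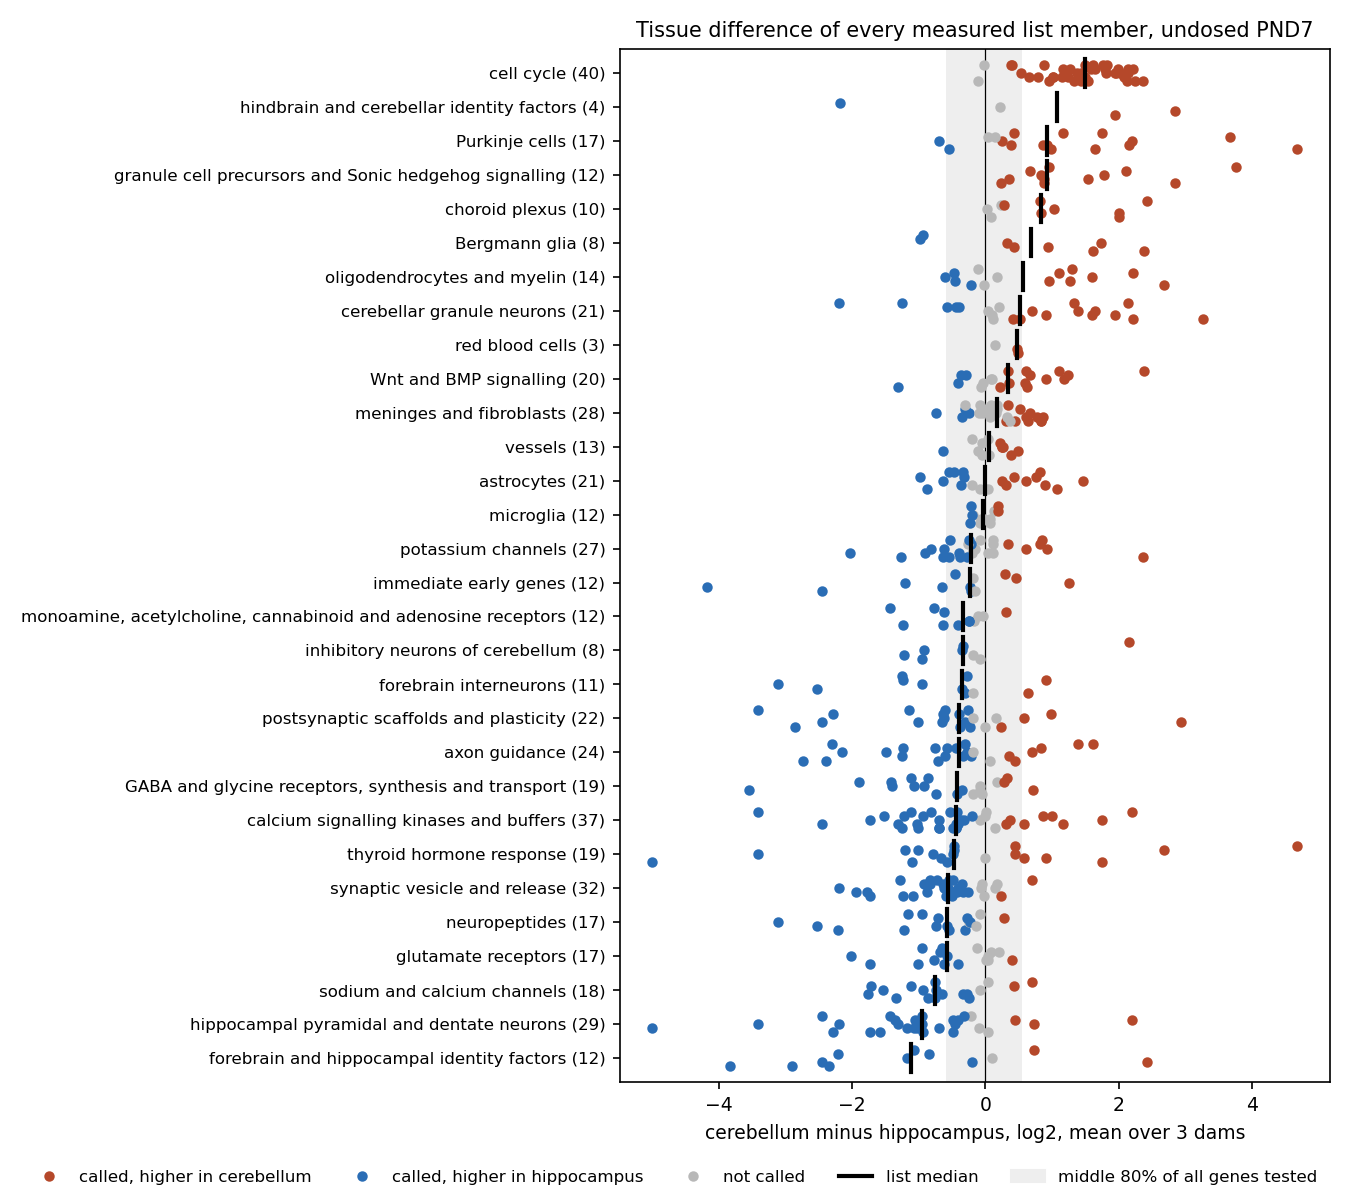
Log2 difference, cerebellum minus hippocampus (horizontal axis, mean over 3 dams), of every measured member of the 30 gene lists, with the number measured in brackets; colour gives the call, the black bar the list median and the grey band the middle 80% of all 7135 genes. Cell cycle genes lie almost wholly to the right (median 1.49), pyramidal and dentate genes mainly to the left (median -0.95), and astrocyte genes on both sides.

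Axon guidance genes were higher in hippocampus in 16 of 24 cases (14 without dam 13) and in cerebellum in 6. Sema3c, a repellent and attractant of axons, stood at 10.06, 9.51 and 9.48 in hippocampus against 6.88, 6.94 and 7.03, and its receptor gene Nrp1 at 9.89, 9.76 and 9.76 against 7.52, 7.56 and 7.87 (4.44-fold). The ephrin receptor genes Epha5 and Epha4 were 5.23-fold and 4.90-fold higher in hippocampus. Ntn1, the guidance cue netrin, was 3.05-fold higher in cerebellum and Sema6a, which steers granule cell migration, 2.63-fold. Wnt and BMP genes were higher in cerebellum in 12 of 20 cases (11 without dam 13) and in hippocampus in 4, among the latter Wnt4 (2.49-fold). The Wnt effector Tcf7l2 was 2.36-fold higher in cerebellum and the Wnt inhibitors Wif1 and Sfrp2 2.26-fold and 2.16-fold. Of 19 thyroid hormone responsive genes of brain, 7 were higher in cerebellum and 11 in hippocampus. The list spanned the whole range of differences, from Crym and Nrgn on the hippocampal side to Pcp2 and Mbp on the cerebellar side.

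Genes of cells at the edge of the tissue varied with the dam. Ttr, the secreted thyroxine carrier of choroid plexus, stood at 12.84, 13.45 and 13.11 in the cerebella of dams 1, 7 and 13, and at 12.84, 8.79 and 11.76 in their hippocampi. The hippocampus of dam 1 thus equalled its cerebellum while that of dam 7 was 4.66 lower on the log2 scale, and the mean difference of 2.00 had an SD over dams of 2.40. limma's moderated SE was 0.62 (adjusted p = 0.0182), and the call was lost in the fit over 23 arrays (SE 1.41, adjusted p = 0.253). Enpp2, a choroid plexus and myelin enzyme, was 4.02-fold higher in cerebellum but only 0.33 (log2) higher in dam 1. The choroid plexus list as a whole had 7 of 10 measured genes higher in cerebellum, and its summed signal lay between 13.59 and 14.09 (log2) in cerebellum and at 13.50, 11.72 and 12.60 in hippocampus. Without dam 1, 8 of the 10 were higher in cerebellum, and without dam 7, 6 were. The median log2 differences were then 1.15 and 0.61, against 0.83 with all dams. The list's defining genes Kl and Cldn2 did not pass the filter. Htr2c, a serotonin receptor gene that choroid plexus makes in quantity, and Clu were higher in hippocampus, but both calls were lost without dam 1 (log2 differences -0.16 and -0.14, adjusted p = 0.191 and 0.0966). The Otx2 difference was 2.79 without dam 1. Of 28 genes of meninges and fibroblasts, 11 were higher in cerebellum, against 31.2% of all genes tested, and 4 in hippocampus, with summed signals of 14.33 to 14.62 and 14.02 to 14.44. Without dam 13 the counts were 9 and 5, and without dam 7, 2 were higher in hippocampus. Without dam 1 they were 15 and 3, with a median log2 difference of 0.34 against 0.18 with all dams. Col1a2 was 1.72-fold and Igf2 1.79-fold higher in cerebellum. The part of choroid plexus and meninges in the genes above was not tested.

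Blood and immune cell genes were closer. Hbb, a globin gene, was 1.40-fold higher in cerebellum, and the summed signal of 3 red cell genes lay between 12.56 and 13.03 against 12.09 to 12.54. Microglial genes had 2 of 12 higher in cerebellum and 3 in hippocampus, or 41.7% called, against 57.1% of all genes. None of the 12 was called without dam 7 or without dam 13. Their summed signal ran from 11.20 to 11.31 in cerebellum and 11.21 to 11.36 in hippocampus. Of 13 vessel genes, 6 were higher in cerebellum, Cldn5 by 1.30-fold, and 1 in hippocampus, Ramp2 by 1.55-fold. The share called, 53.8%, was near that of all genes (57.1%). The 6 became 3 without dam 7 or without dam 13, and the 1 became 2 without dam 13. Summed vessel signals were 12.16 to 12.26 and 12.09 to 12.21.

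**Figure D3:**
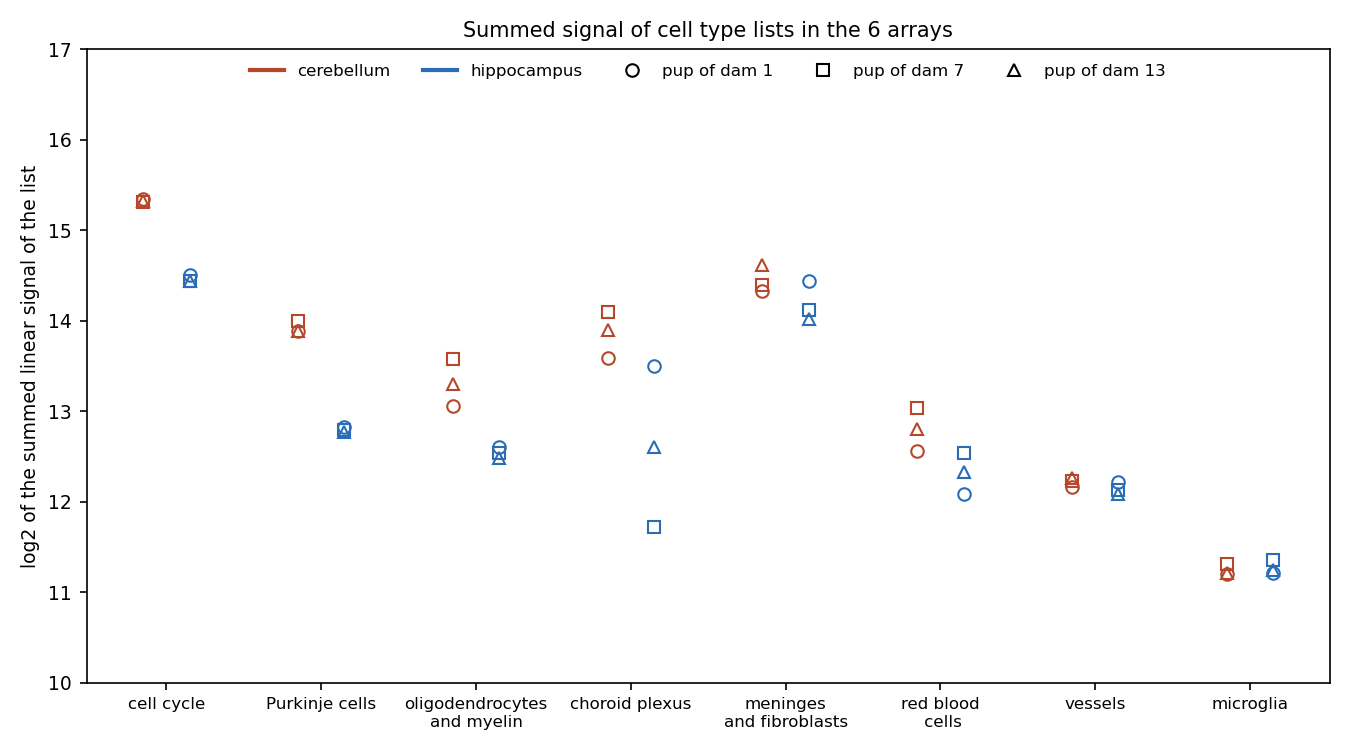
Log2 of the summed linear signal of 8 cell type lists (vertical axis) in each of the 6 arrays; colour gives the tissue and the symbol the dam. Cell cycle and Purkinje sums separate the tissues with little spread (15.31 to 15.35 against 14.44 to 14.50 for the cell cycle), whereas the choroid plexus sum of the hippocampus runs from 11.72 in dam 7 to 13.50 in dam 1.

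The tissue difference was measured again in 3 dosed dams, whose arrays are all separate from the undosed ones. There 4115 genes (57.7%) were called. Of the 4074 genes called in undosed pups, 3930 (96.5%) had the same sign in dosed pups, and 3238 were called in the same direction in both, which is 79.5% of the undosed and 78.7% of the dosed calls. All 541 genes over 2-fold apart in undosed pups had the same sign in dosed pups. Without dam 13, 3076 of 3149 (97.7%) had the same sign and 2712 were called in the same direction in both. Pearson's r of the differences across genes was 0.94, a description, since genes are not independent replicates. In dosed pups the log2 difference was 4.27 for Pcp2 and 4.20 for Pax6, and 5.04 for Crym and 3.49 for Lhx2 on the hippocampal side. All but 1 of the 38 cell cycle genes called in undosed pups were called the same way in dosed pups, and the list median was 1.52.

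A test of the difference between dosing groups called 1 gene of 7135 (0.014%), with 1160 genes (16.3%) at an unadjusted p under 0.05. That gene was Slc4a10, a sodium bicarbonate transporter of neurons and choroid plexus. In undosed pups its within-dam log2 differences were -1.22, -1.00 and -0.77 (dams 1, 7 and 13), and in dosed pups -0.07, -0.14 and -0.12 (dams 12, 15 and 18). The undosed hippocampi read 8.42, 8.42 and 8.00, and the dosed ones 7.71, 7.45 and 7.55. The difference of differences was -0.89 ± 0.13 (SE; limma, adjusted p = 0.0440), and its call was lost without dam 1 (adjusted p = 0.130), dam 7 (0.117), dam 15 (0.0818) or dam 18 (0.0517), without the pairing by dam (0.0838) and with an intensity trend in the variance prior (0.0586). A second called probe set, a dim one for Aplp2, an amyloid precursor-like gene, had within-dam differences of 0.46, 0.43 and 0.48 in undosed and 1.18, 1.12 and 1.29 in dosed pups. The brighter Aplp2 probe set that stood for the gene differed by 0.35 and 0.38 in the undosed and dosed groups.

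The tissue difference of undosed pups was also tested against that on PND14 in dams 1 and 7; the PND14 cerebellum of dam 13 was left out because its values stood apart, with r of at most 0.66 with any other array. The shift between ages was called for 1565 genes (21.9%), 935 (13.1%) moving towards cerebellum and 630 (8.83%) towards hippocampus. After quantile normalization the split was 827 and 921 genes, so the excess towards cerebellum was not kept in this count under that scaling. Over probe sets a smaller excess remained, at 1283 and 1163 against 1454 and 803 with the values as deposited. Of the 541 genes over 2-fold apart on PND7, 536 kept their sign and 370 were over 2-fold apart in the same direction on PND14. Both ages share no array, but dams 1 and 7 gave pups to both. With the left-out array, 12 of 9784 probe sets were called instead of 2257. Without the PND14 pup of dam 1, whose Xist went against its label, 750 genes (10.5%) were called, with the 1 remaining pup assumed to vary like the others, and without the PND7 pup of dam 13 1179 genes (16.5%).

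Granule neuron genes moved towards cerebellum. Of 21, the shift was called towards cerebellum for 18 and towards hippocampus for none, and the list median went from 0.53 to 1.49. The 18 became 14 without the PND14 pup of dam 1, 17 without the PND7 pup of dam 13, and 2 with the left-out array. Grm4, a glutamate receptor gene of granule cell terminals, read 7.10, 6.87 and 7.11 in the PND7 cerebella and 9.52 and 10.09 in those of PND14, while hippocampus went from 6.68, 6.99 and 6.80 to 7.36 and 7.48. Its shift was 2.18 ± 0.17. Fat2 shifted by 2.05, Slc17a7 by 1.33 and Neurod1 by 1.29 (the last named after its values were seen). Slc1a6, the glutamate transporter of Purkinje cells, shifted by 2.56 ± 0.13 as its cerebellar level went from 8.19, 8.62 and 8.43 to 10.15 and 10.46. Syt4, a synaptotagmin, changed sides: it differed by -1.72 on PND7 and by 0.98 on PND14, a shift of 2.70 ± 0.14. Synpr, a vesicle protein gene, went from -2.41 to 0.01, and Hpcal1, a calcium sensor gene, from 0.38 to 2.53. Syt4, Slc1a6, Synpr, Grm4 and Hpcal1, the 5 largest shifts in this direction, were also called with the left-out array.

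Hippocampal and cell cycle genes moved the other way. Of 29 pyramidal and dentate genes the shift was called towards hippocampus for 12 and towards cerebellum for 4. Fibcd1 went from 0.44 higher in cerebellum to -2.86 (shift -3.29 ± 0.16), with hippocampi of 8.20 and 8.43 on PND14 against 6.64, 6.68 and 6.65 before. Wfs1 shifted by -1.83 and Wipf3, an actin regulator gene, by -1.997. Htr2c shifted by -2.37 ± 0.33. Among the PND7 hippocampi of dams 1, 7 and 13 it read 8.70, 7.98 and 7.79. Any part of choroid plexus in its shift was not tested. Mbp went from 2.67 to 0.74 (shift -1.93 ± 0.16): the hippocampi rose from 8.65, 8.99 and 8.57 to 12.35 and 12.45, and the cerebella from 10.95, 11.86 and 11.42 to 13.09 and 13.18. With the left-out array these 5 shifts missed the threshold, with adjusted p from 0.0603 (Mbp) to 0.579 (Htr2c). Of 40 cell cycle genes the shift was towards hippocampus for 22 and towards cerebellum for 2, and the list median went from 1.49 to 1.14. With the left-out array no cell cycle gene was called, and 1 pyramidal or dentate gene was called (towards cerebellum). Without the PND14 pup of dam 1 the counts were 16 and 1 for the cell cycle and 11 and 4 for pyramidal and dentate genes, and without the PND7 pup of dam 13 they were 18 and 2, and 12 and 4. Mki67 went from 2.37 to 1.66 and Ccnd2, a cyclin of granule cell precursors named after its values were seen, from 1.53 to 0.56.

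**Figure D4:**
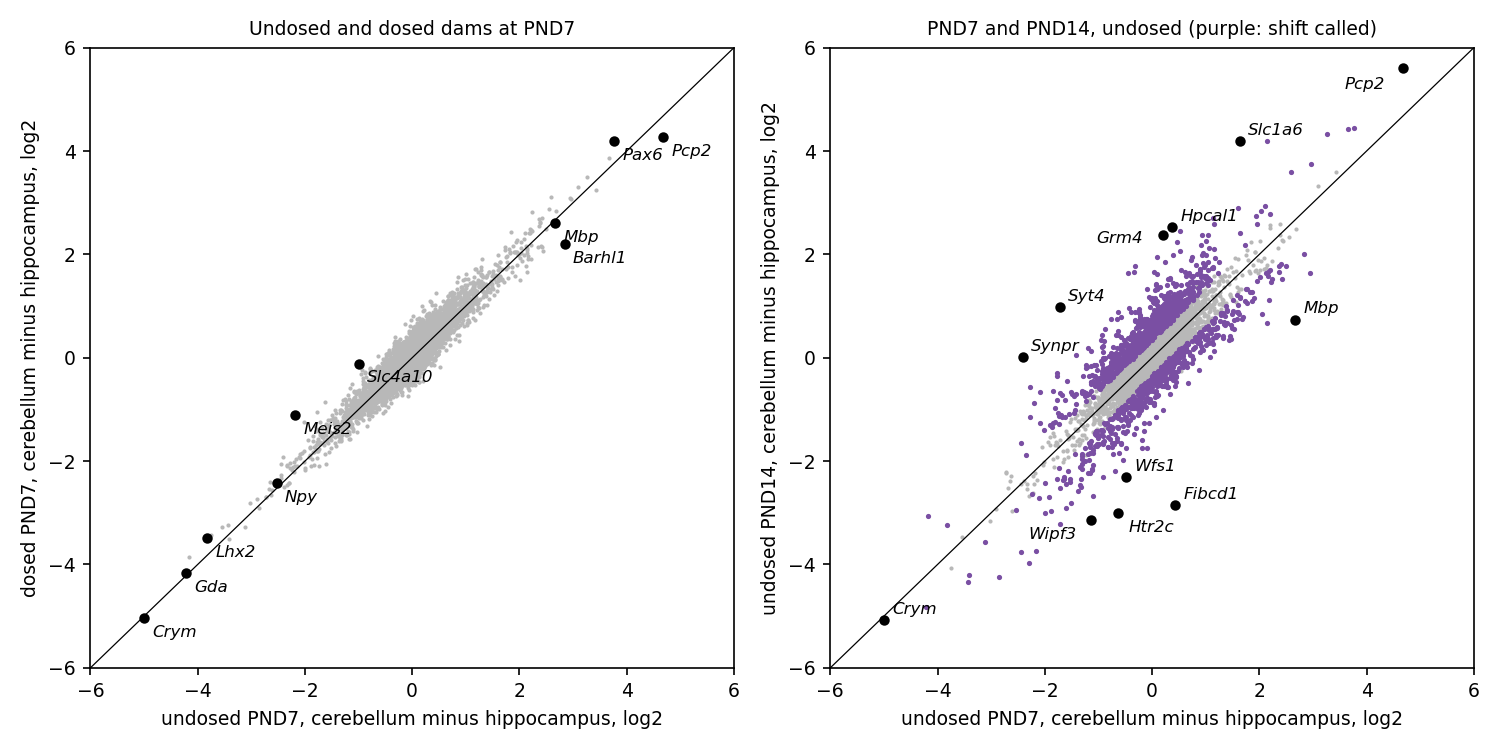
Log2 difference, cerebellum minus hippocampus, of each of 7135 genes in undosed PND7 pups (horizontal axes) against dosed PND7 pups (left, vertical axis) and undosed PND14 pups (right, vertical axis); the line marks equal differences, purple points are genes whose shift between ages was called, and black points are the genes labelled by name. Points lie along the line on the left (r = 0.94), with Slc4a10 off it at -1.00 and -0.11, and spread more on the right (r = 0.83), where Syt4 crossed from -1.72 to 0.98 and Fibcd1 from 0.44 to -2.86.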

How the data were processed

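RNA of 6 cerebella and hippocampi was measured on 1 array each. The authors deposited 1 log2 expression value per probe set and array; how the authors normalized these log2 values, and with which software, is not given in the sources used here. Arrays have no read depth, so their number limits the precision. Control probe sets were left out, and a probe set was tested where it exceeded the array's 40th percentile in at least 3 of the 6 arrays (9784 probe sets, 7135 genes with 1 symbol). limma 3.58.1 (R 4.3.3) fitted cerebellum minus hippocampus with the dam as a fixed block, and p-values were adjusted over all tested probe sets (Benjamini-Hochberg, 2-sided, called under 0.05). The dosing groups and ages were compared on within-dam differences, over the same probe sets. The fits were tested on simulated data: for the tissue difference 98.5% of simulated log2 changes of 1 and 74.6% of changes of 0.5 were recovered, for undosed against dosed 95.5% and 52.2%, and for PND14 against PND7 89.6% and 14.9%. The simulated noise was independent between probe sets and had no dam effect, and far fewer probe sets were changed than were called for the tissue difference. The rates therefore check the fits and are not the sensitivity on these arrays.

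Pairing comes from the dam number in the labels, where 1 pup per litter was taken at each age. Deviations from the tissue mean correlated between the tissues of a dam with r of -0.05 (dam 1), 0.29 (dam 7) and 0.17 (dam 13). Pups are of separate litters.

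Genes named are the 15 largest called differences in each direction with 1 symbol and the same sign in all dams, up to 4 called members of each gene list in each direction, all glutamate, GABA and glycine receptor genes, the cell type markers, and for the comparisons of dosing groups and ages the 5 largest called in each direction, or with fewer than 5 called the 3 smallest p. Exceptions are marked. Members and lists were chosen with earlier results of these data known. Symbols come from the platform's annotation: 12783 of 15866 probe sets have 1 symbol, 312 several and 2771 none. Promoters come from RefSeq (GRCr8), with motifs searched on both strands. Alternatives were other normalizations, filters, fits without the block and leaving out each dam.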

Additional observations from a re-analysis of the deposited data

Results flagged for a closer look

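For 10 genes the tissue difference itself differed between PND14 and PND7 in undosed pups by limma's test of that shift, and they are the 5 largest shifts in each direction. Each ± here is limma's moderated SE, from 3 dams on PND7 and 2 on PND14. Towards cerebellum the log2 shifts were 2.70 ± 0.14 for Syt4, 2.56 ± 0.13 for Slc1a6, 2.42 ± 0.16 for Synpr, 2.18 ± 0.17 for Grm4 and 2.16 ± 0.12 for Hpcal1 (limma, adjusted p from 9.19e-08 to 3.02e-06). Towards hippocampus they were -3.29 ± 0.16 for Fibcd1, -2.37 ± 0.33 for Htr2c, -1.997 ± 0.18 for Wipf3, -1.93 ± 0.16 for Mbp and -1.83 ± 0.17 for Wfs1 (limma, adjusted p from 9.19e-08 to 0.000243). The tissue difference also differed between undosed and dosed pups for Slc4a10, by -0.89 ± 0.13 (limma, adjusted p = 0.0440), a call lost without any of 4 dams, without the pairing by dam and with an intensity trend in the variance prior (adjusted p from 0.0517 to 0.130).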

How the results depend on the processing

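Counts here are of probe sets called in limma. Quantile normalization, an intensity trend in the variance prior and other filters moved the undosed PND7 count of 5662 to between 4313 (6708 tested at the 60th percentile) and 6393 (no filter), and leaving out a dam gave 4401 to 6207. A fit of 1 mean per group over 23 arrays called 4983. Over 24 quantile normalized arrays, which include the cerebellum that stood apart, 3152 were called (1607 higher in cerebellum, 1545 in hippocampus), and 3747 in dosed pups against 5684 (1943 higher in cerebellum against 3116). Without a filter 4560 were higher in hippocampus in dosed pups, against 2568. The cause of these changes was not tested. The difference between dosing groups, called for 2 probe sets (1704 at an unadjusted p under 0.05), was called for 0 with the trend (1701 at an unadjusted p under 0.05), 1 at the 60th percentile and 0 to 8 (0 to 1 positive, 0 to 7 negative) without a dam. The shift between ages, called for 2257, was called for 12 with the array that stood apart, all 12 positive and 0 negative, and for 1133 to 2239 (664 to 1288 positive, 455 to 951 negative) without a dam. Gene list members called numbered 371, and 333 to 379 without a dam. Of 181 genes named and called on PND7, 8, 15 and 13 lost their call without dams 1, 7 and 13, 43 over 24 arrays and at most 21 under any other alternative. No named gene that was called changed sign under any alternative run.

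Without the pairing by dam as a block, 5693 probe sets were called in undosed pups, 5536 in dosed pups, 2335 for the shift between ages (2257 with it) and 366 gene list members. For the difference between dosing groups 0 were called without the block, with 1584 at an unadjusted p under 0.05 in limma. Of the genes named for PND7, 6 lost their call and 1 gained one.

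With 3 dams a group, the number of arrays limits which differences can be called. Genes above the filter level (6.86 to 6.92 on the log2 scale) in fewer than 3 arrays were filtered out rather than measured. A gene above that level in a single tissue was kept. Among the genes named, Pcp2, Car8, Barhl1, Zic1, Mki67, Cntn2, Fat2, Boc, Otx2 and Fibcd1 read below it in every hippocampus. Lhx2, Camk2a, Gabra5, Grin2d and Grm7 read below it in every cerebellum. These are examples and not a full list. The folds of such genes rest on low values in the other tissue, and their side follows from the filter.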

Other observations

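Several genes carry more than 1 probe set, and not all of them read alike. Of 944 genes with several tested probe sets, 14 had probe sets called in opposite directions, and for 3 of these both sides were beyond 0.5 on the log2 scale; they were chosen after their values were seen. Dclk1, a microtubule-binding kinase of young neurons, read -1.47 and -1.37 (cerebellum minus hippocampus) on a pair of probe sets and 0.97 on another. Cdh22, a cadherin gene, read -0.92 and 0.60, and Plin2, which coats lipid droplets, read -1.36 and 0.75. In dosed pups each of these probe sets kept its sign, at -1.17, -1.03 and 1.05 for Dclk1, -0.94 and 0.44 for Cdh22, and -0.72 and 0.74 for Plin2.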
